A study of Mus musculus with 24 samples.

Results

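*Dlx1*, *Dlx2*, *Dlx5*, *Dlx6*, *Lhx6*, *Nkx2-1*, *Sp8* and *Sp9* encode transcription factors of the lineage that gives rise to inhibitory interneurons of the forebrain. Their promoters were examined in a survey of H3K4me3, the trimethyl mark on lysine 4 of histone H3, in mouse cerebral cortex. A gene was represented by any counted region that overlapped one of its annotated transcription start sites (TSSs) on mm9. By this rule 6 of the 8 genes had a region, 1 each, among 17993 regions in all, of which 13404 overlapped a TSS. *Sp9* and *Nkx2-1* had none.

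The control line, Rosa H2B-FLAG, carried FLAG-tagged histone H2B under the CAG promoter at the *Rosa26* locus. The floxed stop had been removed with *Vasa*-Cre, so that the tag was expressed throughout the body from development onward. Camk2a H2B-FLAG mice carried the floxed form of the same allele with the tamoxifen-dependent CaMKCreERT2, and expressed the tag in *Camk2a*-positive neurons. For this, males were injected with tamoxifen from an age of 8 weeks, at 1 mg daily over 5 days, and the cortex was collected about a month later. The Rosa mice were adult, and no tamoxifen is described for them. Both lines were C57BL/6 according to the labels. Single ChIP-Seq used the H3K4me3 antibody by itself, and its chromatin therefore came from all cortical cells of either line. Tandem ChIP-Seq (tChIP-Seq) pulled chromatin down first through the FLAG tag and then through H3K4me3. Each of the 4 groups had 3 libraries, with lysates made from pools of 2 animals, and total counts were 4063200 to 8644574 in single ChIP-Seq and 1457261 to 3049130 in tChIP-Seq.

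Interneurons of the cortex are born in the ganglionic eminences of the embryonic ventral forebrain and migrate into the cortex. In the progenitors, *Dlx1* and *Dlx2* act upstream of *Dlx5* and *Dlx6*. *Nkx2-1* specifies the medial eminence and induces *Lhx6*, a LIM homeodomain factor that postmitotic interneurons of this origin retain. The zinc finger factor *Sp8* marks the lateral and caudal eminences and cells derived from them, and *Sp9* is a related factor. *Camk2a* is expressed mainly in excitatory cortical neurons. H3K4me3 marks the promoters of genes that are active or held ready for activity. A count therefore measures a histone mark and not a transcript level. In bulk chromatin, fewer cells with the mark and less of the mark per cell cannot be told apart.

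The *Dlx* genes lie in pairs that are transcribed toward each other. The *Dlx1* region (chr2:71366687-71368594) covered the 5′ part of the gene and held 4 of its 6 TSSs, while its first TSS lay 517 bp outside. The *Dlx2* region (chr2:71381668-71384996) spanned 94.0% of the gene. On chromosome 6, the *Dlx6* region (chr6:6813193-6814801) held all 3 TSSs of its gene, and the *Dlx5* region (chr6:6828095-6832136) spanned 93.2% of *Dlx5*. *Lhx6* had a region at its 5′ end (chr2:35958684-35961173) with 5 of 6 TSSs, and *Sp8* one of 939 bp (chr12:120085142-120086080) with 1 of 2 TSSs. A region in *Sp9* (chr2:73110715-73113112) began 692 bp from its nearest TSS. It is given separately below. The region nearest to *Nkx2-1* was 74.995 kb away, so no H3K4me3 value of *Nkx2-1* can be given. None of the 6 regions held the TSS of another gene, although the antisense transcripts *Dlx1as* and *Dlx6os1* run through the *Dlx1* and *Dlx6* regions.

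GC content of the regions was 56.3% to 61.8%, against a median of 54.2% over all regions at a TSS, and the ratio of observed to expected CpG was 0.597 at *Dlx5* to 0.908 at *Sp8*, against 0.605, with *Dlx5* alone below it. To show sequence at the start sites themselves, the 250 bases before a TSS inside the region are given for *Dlx2* and *Lhx6*, which had the largest decreases between the lines, and for *Sp8*, which was not called. The sequence is mm9, read 5′ to 3′ on the strand of the gene, with each CpG in capitals.
Dlx2 (chr2:71384812-71385061, minus strand): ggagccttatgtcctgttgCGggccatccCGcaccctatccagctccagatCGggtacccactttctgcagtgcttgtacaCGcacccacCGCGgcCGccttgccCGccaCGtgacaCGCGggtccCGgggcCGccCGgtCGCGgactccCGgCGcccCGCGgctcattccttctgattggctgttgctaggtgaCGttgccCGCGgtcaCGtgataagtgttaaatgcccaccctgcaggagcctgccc
Lhx6 (chr2:35960929-35961178, minus strand): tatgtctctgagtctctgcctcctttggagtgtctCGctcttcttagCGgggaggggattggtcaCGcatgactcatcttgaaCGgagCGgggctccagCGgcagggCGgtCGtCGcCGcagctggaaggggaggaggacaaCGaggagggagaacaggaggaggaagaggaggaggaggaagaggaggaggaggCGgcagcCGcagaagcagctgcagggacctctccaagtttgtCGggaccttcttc
Sp8 (chr12:120085414-120085663, plus strand): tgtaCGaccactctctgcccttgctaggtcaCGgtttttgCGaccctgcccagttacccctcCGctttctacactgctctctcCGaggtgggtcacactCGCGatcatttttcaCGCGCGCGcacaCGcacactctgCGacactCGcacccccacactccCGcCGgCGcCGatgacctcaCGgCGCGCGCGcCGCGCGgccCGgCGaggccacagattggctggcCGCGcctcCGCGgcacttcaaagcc
*Sp8* had 32 CpGs in this window, *Dlx2* 24 and *Lhx6* 14, compared with a median of 9 over 45982 windows of protein-coding transcripts. The windows of *Dlx1* and *Dlx5*, which are not shown, were at this median, with 9 each. That of *Dlx6*, also not shown, had 3, which is below the median and equal to the lower quartile. The GC box GGGCGG, searched on both strands, was found in the windows of *Dlx2* and *Lhx6* and in 41.1% of all windows. The homeodomain core TAATTA was in none of the 3 windows shown, had 2 matches in the window of *Dlx1*, and was in 3.96% of all windows. The windows lay inside the counted region for 250 bases at *Sp8*, 245 at *Lhx6*, 185 at *Dlx2* and 53 at *Dlx1*. The TAATTA matches of *Dlx1* lay in the part outside the region. The *Dlx1* window lay downstream of the first *Dlx1* TSS, and all of it overlapped an annotated untranslated region. The *Sp8* window likewise lay downstream of the first *Sp8* TSS (chr12:120084802), within the annotated gene, but overlapped no annotated untranslated region.

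H3K4me3 at these promoters was low in the cortex as a whole. Levels between genes are given as CPM (TMM-normalized counts scaled to the library's total) per kb of region. In Rosa single ChIP-Seq, *Dlx6* had the highest level, 13.7 ± 2.62 CPM per kb (SD, n = 3), and *Lhx6* the lowest, 6.91 ± 0.500. *Dlx2* (9.16 ± 0.757), *Dlx5* (8.89 ± 0.719), *Sp8* (8.32 ± 0.652) and *Dlx1* (8.31 ± 0.390) lay between them, and neighbors in this order overlapped in their libraries except for *Dlx6* with *Dlx2* and *Dlx1* with *Lhx6*. The median over all TSS regions was 29.3 CPM per kb, and 17.3% of them lay below *Dlx6*. Camk2a single ChIP-Seq gave the same order of means, from 13.3 ± 1.90 CPM per kb at *Dlx6* to 6.63 ± 1.51 at *Lhx6*, and only *Dlx6* was separated from its neighbor. The order was different after tandem purification. In Rosa tChIP-Seq, *Sp8* (15.3 ± 1.28 CPM per kb) and *Lhx6* (14.1 ± 0.617) came first and *Dlx5* (8.39 ± 2.06) last, with every pair of neighbors overlapping. In Camk2a tChIP-Seq, *Sp8* (11.5 ± 0.451) stood apart from *Lhx6* (6.14 ± 0.637), *Dlx1* (6.00 ± 0.859), *Dlx6* (5.81 ± 0.763) and *Dlx5* (5.63 ± 0.331), and *Dlx2* was last and separate at 4.29 ± 0.341.

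**Figure D1:**
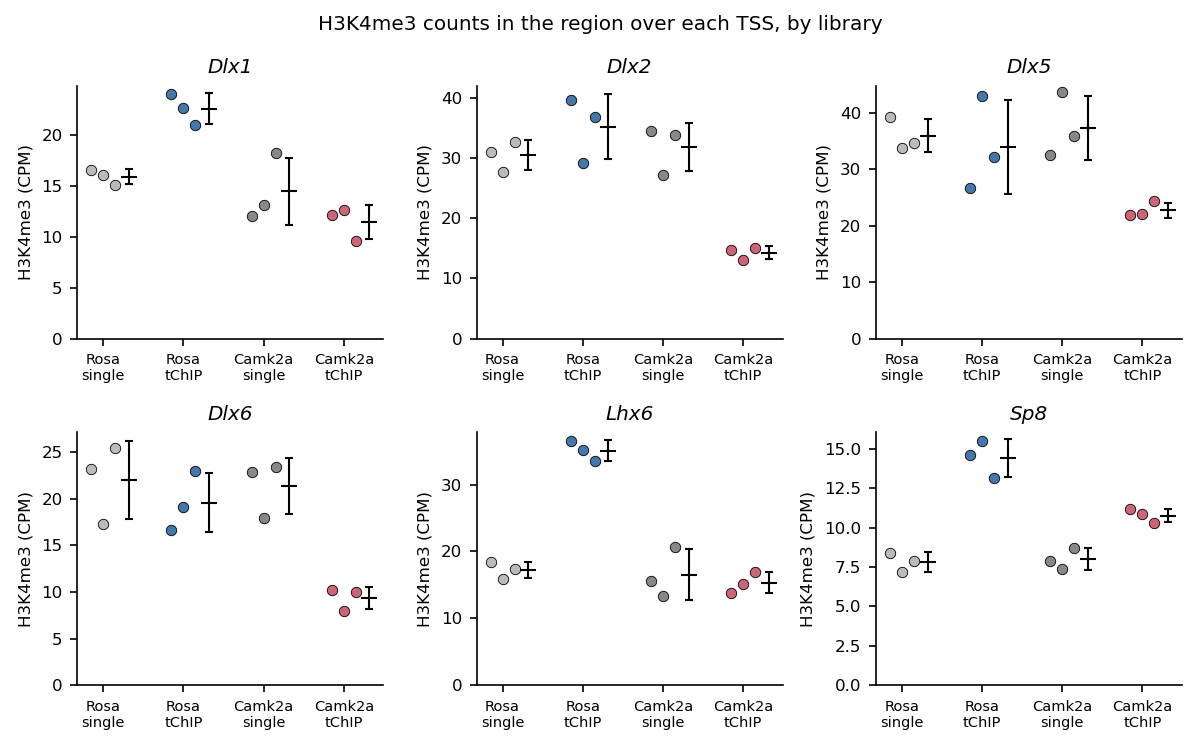
H3K4me3 in the region over a TSS of each gene, as CPM (y axis, from 0) in each of the 12 libraries (points), with the mean and SD of 3 libraries beside them. The 3 Camk2a tChIP-Seq libraries lie below the 3 Rosa tChIP-Seq libraries in each of the 6 panels, whereas the single ChIP-Seq libraries of the lines overlap.

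Which promoters differ between *Camk2a*-positive neurons and all cortical cells was asked by comparing tChIP-Seq of the lines. The paper puts the tagged cells of the brain near the lowest share at which its cell mixing test worked. Carry-over of chromatin from untagged cells into Camk2a tChIP-Seq was not measured here. H3K4me3 at 5 of the 6 regions, all but *Sp8*, was lower in Camk2a than in Rosa tChIP-Seq (edgeR, adjusted p under 0.01). Over all 17993 regions, 31.6% were called, 14.6% as lower and 17.0% as higher. The median log2 fold change of the 6 regions was -1.003, and that of all regions was 0.00. In all 6 regions, the 3 Camk2a libraries lay below the 3 Rosa libraries, a separation in this direction seen in 23.6% of all regions.

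Of the upstream pair, *Dlx2* had the largest decrease. Its Rosa tChIP-Seq libraries had 39.7, 29.2 and 36.7 CPM and its Camk2a tChIP-Seq libraries 14.8, 13.0 and 15.1 CPM. The log2 fold change was -1.30 (SE 0.169, adjusted p = 3.76e-10, edgeR). Every Camk2a library was thus below the lowest Rosa library. *Dlx1* had 24.0, 22.7 and 21.0 CPM in Rosa and 12.1, 12.6 and 9.58 CPM in Camk2a tChIP-Seq, which gave a log2 fold change of -0.97 (SE 0.197, edgeR adjusted p = 2.49e-05).

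The downstream pair was lower in Camk2a mice too. For *Dlx6*, the values were 16.7, 19.1 and 23.0 CPM in Rosa and 10.2, 7.94 and 9.95 CPM in Camk2a tChIP-Seq, which gave a log2 fold change of -1.04 (SE 0.216, edgeR adjusted p = 4.26e-05). *Dlx5* had 26.6, 42.9 and 32.1 CPM in Rosa and 22.0, 22.0 and 24.3 CPM in Camk2a tChIP-Seq. Its log2 fold change of -0.56 (SE 0.158, edgeR adjusted p = 0.0026) was the smallest of those called, and its Rosa libraries were the most widely spread. The call for *Dlx5* was lost without replicate 2 of Rosa tChIP-Seq (adjusted p = 0.128) and with DESeq2 (adjusted p = 0.0228) among adjusted p values of 0.000346 to 0.128 in its 13 alternatives.

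*Lhx6* had 36.5, 35.2 and 33.5 CPM in Rosa tChIP-Seq and 13.8, 15.2 and 16.9 CPM in Camk2a tChIP-Seq. The log2 fold change was -1.20 (SE 0.164, edgeR adjusted p = 1.98e-09), and the spread within each group was small beside the gap between them. *Sp8* had 14.6, 15.5 and 13.1 CPM in Rosa and 11.2, 10.8 and 10.3 CPM in Camk2a tChIP-Seq. These rest on 20 to 34 reads a library, and the log2 fold change of -0.42 (SE 0.224) did not pass the threshold (edgeR adjusted p = 0.135).

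**Figure D2:**
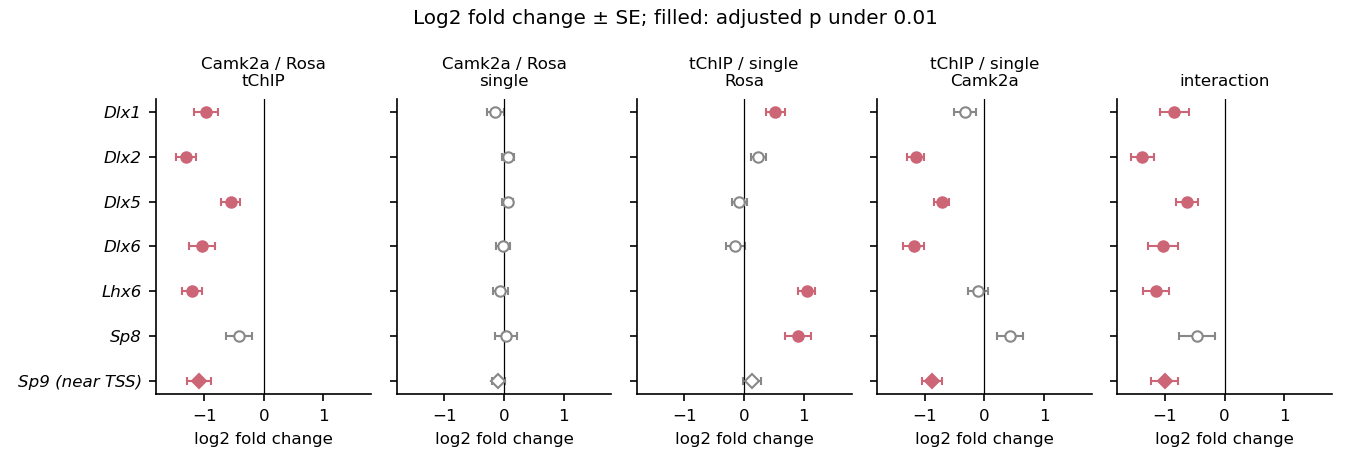
Log2 fold change (x axis) with its SE for each gene in the 5 comparisons, one panel each, with the region near the *Sp9* TSS as a diamond. Filled symbols have an adjusted p under 0.01 in edgeR. Decreases between the lines were called in tChIP-Seq and none in single ChIP-Seq.

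In single ChIP-Seq, which reads all cells in both lines, none of the 6 regions was called by edgeR or by DESeq2, and none had an unadjusted p under 0.05. Over all regions, edgeR called 2.15%. The log2 fold changes of the 6 lay between -0.14 at *Dlx1* and 0.07 at *Dlx2*, with SEs up to 0.186. All 6 overlapped between the lines, where 25.0% of all regions did not. *Lhx6*, for example, had 18.4, 15.9 and 17.3 CPM in Rosa and 15.5, 13.4 and 20.7 CPM in Camk2a single ChIP-Seq.

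Whether the effect of the line differed between the kinds of ChIP-Seq was tested as an interaction over all 12 libraries. It was called for 5 of the 6 regions, each with the tChIP-Seq effect below the single ChIP-Seq effect. Over all regions, 26.9% were called, 13.2% in this direction. The interaction was -1.38 for *Dlx2* (SE 0.197, edgeR adjusted p = 2.36e-10), -1.15 for *Lhx6* (SE 0.215, adjusted p = 1.44e-06) and -1.03 for *Dlx6* (SE 0.252, adjusted p = 0.000333) on the log2 scale. For *Dlx1* it was -0.84 (adjusted p = 0.00302) and for *Dlx5* -0.63 (adjusted p = 0.00288). Both of these calls were lost without certain libraries. For *Dlx1* these were replicate 3 of Camk2a single ChIP-Seq (adjusted p = 0.0419), replicate 3 of Camk2a tChIP-Seq (0.0171) and replicate 1 of Rosa tChIP-Seq (0.0156), and thinning gave 0.0214. For *Dlx5* they were replicate 2 of Rosa tChIP-Seq (0.113) and replicate 2 of Camk2a single ChIP-Seq (0.0314). *Sp8* was not called (-0.46, adjusted p = 0.233).

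Within each line, 3 of the 6 regions were called between tChIP-Seq and single ChIP-Seq, a share near that of all regions. These comparisons share libraries with those above, so their values are given side by side and not as further evidence. In Rosa mice, H3K4me3 after tandem purification exceeded that of single ChIP-Seq at *Lhx6*, *Sp8* and *Dlx1*, 3 of the 6 regions, where 47.2% of all regions were called, 24.7% as higher and 22.5% as lower. The log2 fold changes were 1.05 for *Lhx6* (SE 0.141, edgeR adjusted p = 1.62e-12), 0.90 for *Sp8* (SE 0.214, adjusted p = 8.13e-05) and 0.52 for *Dlx1* (SE 0.163, adjusted p = 0.00339). The same 3 regions did not overlap between the groups, as was the case in this direction for 30.2% of all regions. *Dlx2* (0.24), *Dlx5* (-0.08) and *Dlx6* (-0.15) were not called. After thinning of the single ChIP-Seq counts to tChIP-Seq totals, only *Lhx6* was still called, and the adjusted p was 0.0246 for *Sp8* and 0.0754 for *Dlx1*. The call for *Dlx1* was also lost without replicate 1 (adjusted p = 0.0414) or replicate 2 (0.0156) of Rosa tChIP-Seq and with DESeq2 (0.0137).

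In Camk2a mice it was the other 3 regions that were called, as lower after tandem purification. Over all regions, 47.9% were called, 22.6% as lower and 25.3% as higher. The log2 fold change was -1.19 for *Dlx6* (SE 0.179, edgeR adjusted p = 2.46e-09), -1.15 for *Dlx2* (SE 0.145, adjusted p = 2.1e-12) and -0.72 for *Dlx5* (SE 0.125, adjusted p = 1.85e-07). These 3 regions also did not overlap between the groups, against 30.6% of all regions in this direction. *Sp8* did not overlap either, in the opposite direction, for which no share of all regions was computed. At *Dlx2* the Camk2a libraries fell from 34.5, 27.2 and 33.9 CPM in single ChIP-Seq to the tChIP-Seq values given above. *Lhx6* had 16.5 ± 3.77 CPM in single and 15.3 ± 1.59 CPM in tChIP-Seq of this line (SD, n = 3), which is a log2 difference of -0.11 (SE 0.168, adjusted p = 0.58). *Dlx1* (-0.33, adjusted p = 0.12) and *Sp8* (0.43, adjusted p = 0.0747) were not called. *Dlx2*, *Dlx5* and *Dlx6* thus had lower values after purification in Camk2a mice with no call in Rosa mice. *Lhx6*, *Dlx1* and *Sp8* had higher values in Rosa mice with no call in Camk2a mice. A call in a single line does not test a difference between the lines, for which the interaction was given above. At *Sp8* the values were higher after purification in Camk2a mice too, and its interaction was not called.

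The change between kinds of ChIP-Seq was set beside the level of a region. The single ChIP-Seq counts that define the level also enter this change, so low levels can come with higher changes by construction. The part of this, and of the way peaks were listed, in the trend was not tested. TSS regions were divided into 5 classes of equal number by their single ChIP-Seq level, and all 6 regions were in the lowest class, 1.52 to 15.6 CPM per kb. The median log2 fold change of tChIP-Seq over single ChIP-Seq in that class was 0.74 in Rosa and 0.32 in Camk2a mice, and in the highest class it was -0.23 and -0.18. In the lowest class, 61.5% of regions were called as higher after tandem purification in Rosa mice. Between the lines in tChIP-Seq, the lowest class had a median of -0.26, with 35.2% of its regions called as lower and 16.6% as higher. The interaction in this class had a median of -0.46, with 36.4% of regions called as lower and 10.1% as higher. GC content moved with the change from single to tChIP-Seq. In the highest of 4 classes of TSS regions by GC content, which held *Dlx1*, *Dlx2*, *Dlx6* and *Lhx6*, the median change from single to tChIP-Seq was 0.21 in Rosa and 0.16 in Camk2a mice, whereas between the lines in tChIP-Seq it was -0.01. The part of level and GC content in the values of the 6 regions was not tested.

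**Figure D3:**
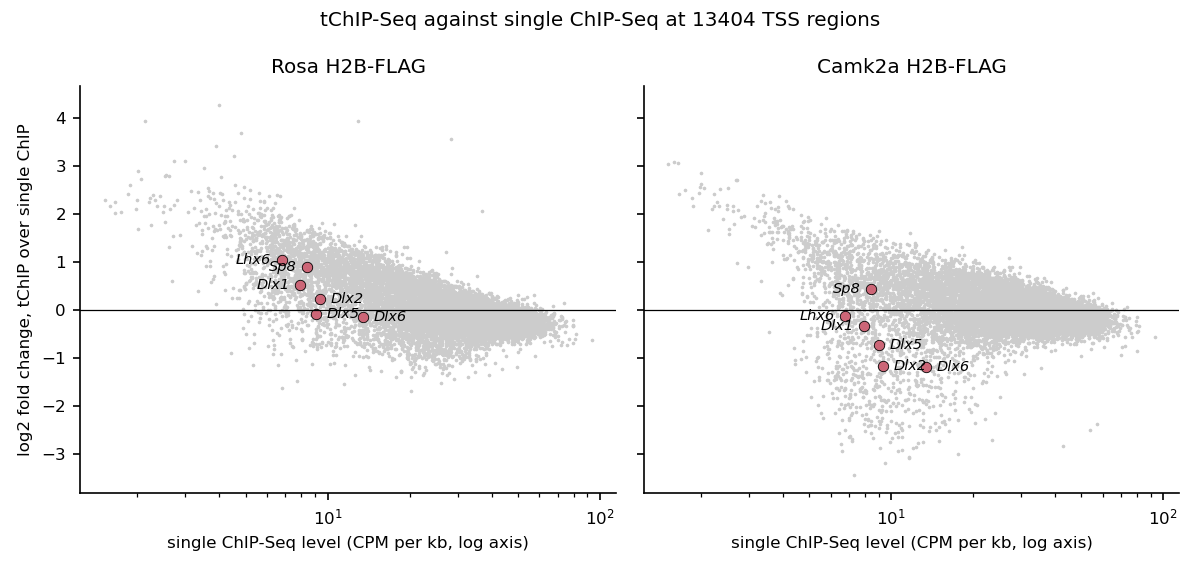
Log2 fold change of tChIP-Seq over single ChIP-Seq (y axis) against the mean single ChIP-Seq level in CPM per kb (x axis, log scale) at 13404 TSS regions (gray) in each line, with the 6 regions named. The y axis contains the single ChIP-Seq counts of the x axis. In Rosa mice *Lhx6* and *Sp8* lie near 1, and in Camk2a mice *Dlx2* and *Dlx6* lie near -1.2.

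The region near *Sp9* was lower in Camk2a tChIP-Seq as well. It had 25.1, 25.1 and 24.3 CPM in Rosa tChIP-Seq and 8.53, 9.74 and 16.9 CPM in Camk2a tChIP-Seq, where replicate 3 was higher than the other two but still below every Rosa library. The log2 fold change was -1.09 (SE 0.201, edgeR adjusted p = 4.31e-06). It was -0.09 in single ChIP-Seq (adjusted p = 0.686), and the interaction was -1.005 (SE 0.231, adjusted p = 0.000115). Within the lines, tChIP-Seq differed from single ChIP-Seq by 0.14 in Rosa (adjusted p = 0.438) and -0.88 in Camk2a mice (adjusted p = 4.31e-06).

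Of 5 other regions within 50 kb of these genes, none was called as lower in Camk2a than in Rosa tChIP-Seq and 1 was called as higher. The shares of all regions were 14.6% and 17.0%. At *Lhx6*, the regions of *Morn5* and *Ndufa8* (chr2:35903513-35905408) and of *Mrrf* and *Rbm18* (chr2:35990992-35993105) gave log2 fold changes between the lines in tChIP-Seq of -0.07 (edgeR adjusted p = 0.63) and -0.01 (adjusted p = 0.937). At *Sp9*, the region of *Cir1* and *Scrn3* (chr2:73149337-73151731) gave 0.01 (adjusted p = 0.964). These 3 regions had mean levels of 30.6 to 32.8 CPM per kb in tChIP-Seq, above all 6 interneuron lineage regions. A region with no TSS (chr2:71418785-71419731), 33974 bp from the nearest *Dlx2* TSS, moved in the opposite direction to *Dlx2*. It had 17.2, 13.7 and 5.91 CPM in Rosa and 21.0, 21.6 and 23.6 CPM in Camk2a tChIP-Seq, for a log2 difference of 0.80 (SE 0.209, edgeR adjusted p = 0.00107). This call rested on the lowest library, replicate 3 of Rosa tChIP-Seq, with 9 reads. Without it the log2 fold change was 0.50 (adjusted p = 0.0543), and DESeq2 gave an adjusted p of 0.0146. Within the lines, the change from single to tChIP-Seq at this region was 1.11 in Camk2a mice (adjusted p = 5.9e-09), which held in each of 14 alternatives, and 0.19 in Rosa mice (adjusted p = 0.445). The region upstream of *Sp8* (chr12:120074903-120075710, no TSS) had a few reads in single ChIP-Seq, 2.45 ± 0.856 CPM in Rosa mice, and 12.8 ± 1.76 CPM in Rosa tChIP-Seq (SD, n = 3). Its log2 fold change between the lines in tChIP-Seq was -0.47 (adjusted p = 0.127).

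**Figure D4:**
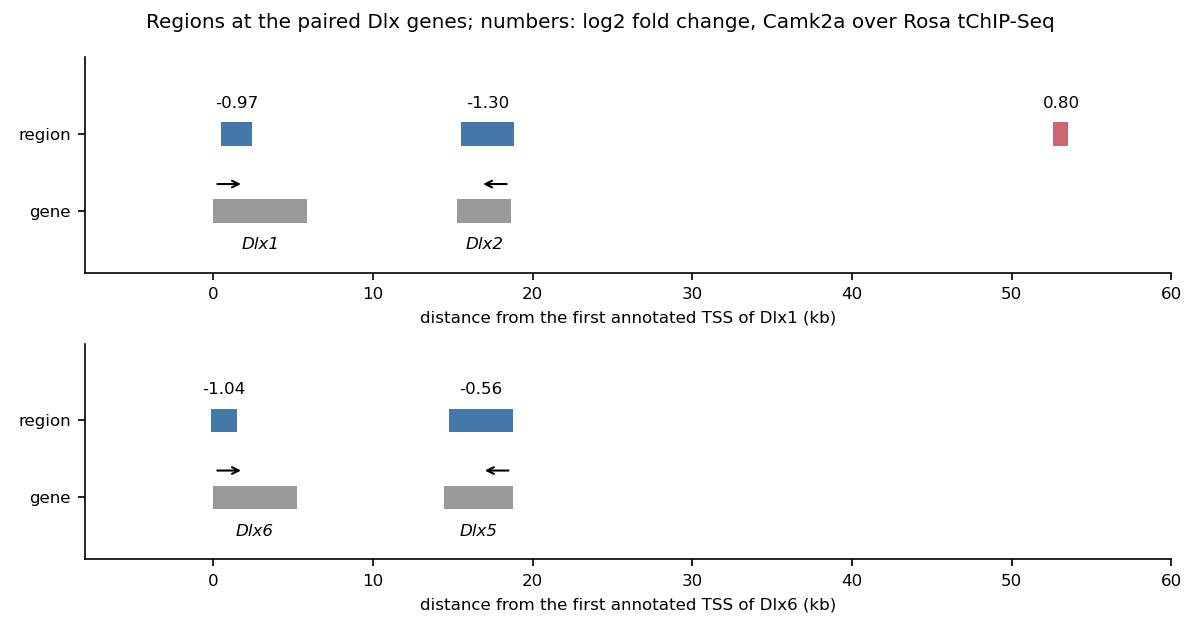
Positions of the paired *Dlx* genes (gray, with arrows in the direction of transcription) and of the counted regions, in kb from the first annotated TSS of *Dlx1* or *Dlx6*, drawn to scale. Numbers are log2 fold changes of Camk2a over Rosa tChIP-Seq, with regions lower in Camk2a in blue and the distal region at 0.80, higher in Camk2a, in red.

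Other transcription factors of the interneuron lineage were called as lower more often than as higher. Over all regions in tChIP-Seq between the lines, 14.6% were called as lower and 17.0% as higher. Of 15 listed, 12 had a region, of which 6 were lower and 1 was higher in Camk2a than in Rosa tChIP-Seq (edgeR), with a median log2 fold change of -0.62. Among those lower was *Prox1*, a factor of interneurons from the caudal eminence that is also found in other cells (-1.38, SE 0.126, edgeR adjusted p = 4.55e-16). None of the 12 was called between the lines in single ChIP-Seq, where 2.15% of all regions were called. The medians in single ChIP-Seq were 0.01 for the list of other interneuron factors and 0.10 for inhibitory neuron genes. In tChIP-Seq against single ChIP-Seq, 5 of the 12 were higher and 2 lower in Rosa mice, against 24.7% and 22.5% of all regions. In Camk2a mice, 4 were higher and 6 lower, against 25.3% and 22.6% of all regions.

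Genes of mature inhibitory neurons were lower where they were called. Of 10 listed, 5 had a region, with a median log2 fold change of -0.55 in tChIP-Seq. Of these, 3 were lower in Camk2a tChIP-Seq, against 14.6% of all regions. Among them were *Gad1*, a GABA synthesizing enzyme (-1.03, SE 0.184, edgeR adjusted p = 2.19e-06), and *Erbb4*, a neuregulin receptor (-0.40, SE 0.0955, adjusted p = 0.000376). The last of these was lost without replicate 3 of Rosa tChIP-Seq (adjusted p = 0.0136, the highest of a range from 3.06e-05). *Gad2* (-0.55, adjusted p = 0.0198) and *Pvalb* (-0.09, adjusted p = 0.82) were not called, and *Slc32a1*, *Sst*, *Vip*, *Npy* and *Calb2* had no region. The summed level of the 5 regions was 183.7 to 199 CPM in Rosa tChIP-Seq, 114 to 124 CPM in Camk2a tChIP-Seq and 173 to 192 CPM in single ChIP-Seq of both lines.

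Relatives of the members by gene family did not move in a single direction. Of 21 listed *Dlx*, *Lhx*, *Nkx2* and *Sp* genes, 11 had a region, of which 4 were lower and 3 higher in Camk2a tChIP-Seq. The median was 0.04, and the shares of all regions were 14.6% lower and 17.0% higher. The largest changes were those of *Nkx2-2*, which is known from the oligodendrocyte lineage (-2.75, SE 0.250, edgeR adjusted p = 3.45e-16), *Lhx1* (-1.74, SE 0.317, adjusted p = 3.17e-06, and -2.43 without replicate 3 of Camk2a tChIP-Seq) and *Sp5* (-1.37, SE 0.173, adjusted p = 1.51e-10). The region of *Lhx1* also holds the TSS of 1500016L03Rik. With a minimum of 10 counts in every library, 2 of these 4 decreases were tested and called.

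**Figure D5:**
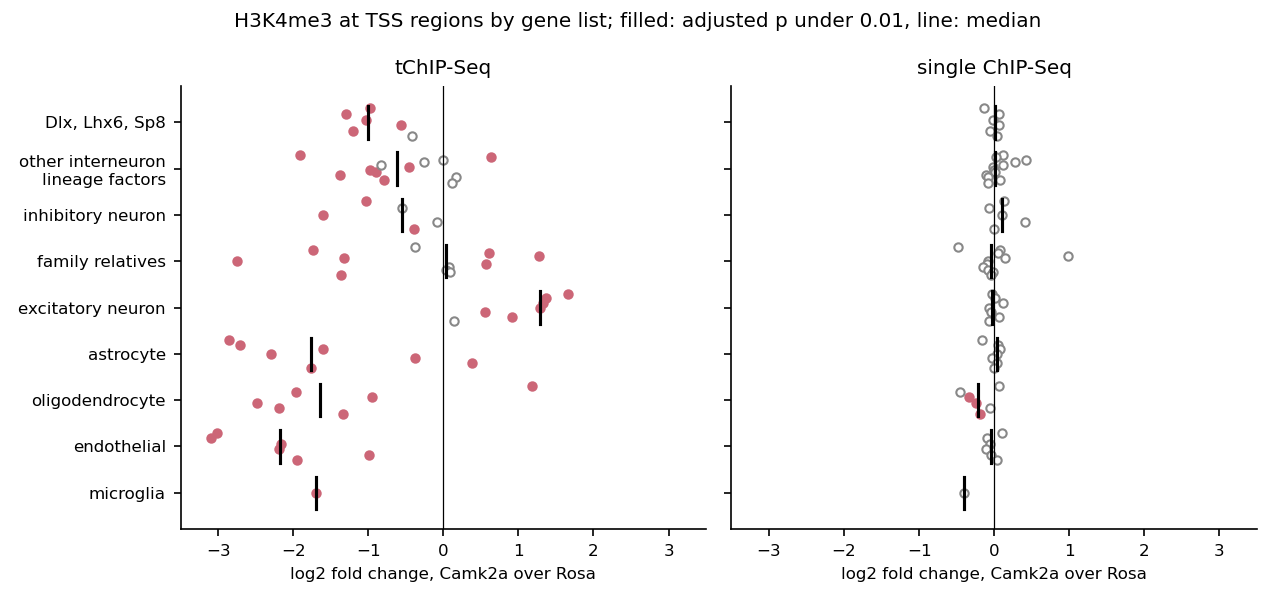
Log2 fold change of Camk2a over Rosa (x axis) at the TSS regions of each gene list (points), with tChIP-Seq on the left and single ChIP-Seq on the right. Filled points have an adjusted p under 0.01 in edgeR and the line is the median of the list. In tChIP-Seq the medians run from -2.17 for endothelial genes to 1.28 for excitatory neuron genes, with -1.003 for the 6 interneuron lineage regions.

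Markers of other cell types moved with the same comparison, in which 14.6% of all regions were called as lower and 17.0% as higher. The region of *Camk2a*, whose promoter drives Cre, had 66.3 to 74.1 CPM in Rosa and 324 to 348 CPM in Camk2a tChIP-Seq, and it was also higher in Camk2a single ChIP-Seq (238 to 262 CPM) than in Rosa single ChIP-Seq (171 to 175 CPM). Of 8 excitatory neuron genes only *Tbr1* had no region. They were higher in Camk2a tChIP-Seq at 6 of 7 regions and lower at none, with a median of 1.28, led by *Slc17a7* (1.65), *Neurod2* (1.37) and *Neurod6* (1.33). Astrocyte genes were lower at 6 of 7 and higher at 1, with a median of -1.77, led by *Aldh1l1* (-2.86), *Aqp4* (-2.71) and *Gja1* (-2.29). Oligodendrocyte genes were lower at 5 of 6 and higher at 1, with a median of -1.65, led by *Olig2* (-2.48), *Mag* (-2.19) and *Mog* (-1.96). The exception was *Mbp*, named after its value was seen, at 1.18. *Aldh1l1*, *Aqp4* and *Mog* were not tested with a minimum of 10 counts in every library. The lowest count called as lower in any setting was 4 for astrocyte and 4 for oligodendrocyte genes. All 6 endothelial regions were lower, with a median of -2.17, led by *Robo4* (-3.09), *Cdh5* (-3.01) and *Tek* (-2.19), the last with an adjusted p of 0.0108 in DESeq2. With a minimum of 10 counts in every library, the 2 endothelial regions still tested were both called and the other 4 were not tested. For microglia only *Cd40* of 7 genes had a region (-1.70), and its call was lost without replicate 2 of Rosa tChIP-Seq (adjusted p = 0.0294), without replicate 2 of Camk2a tChIP-Seq (0.0235) and with DESeq2 (0.0215). In single ChIP-Seq, 3 of the 6 oligodendrocyte regions were lower in Camk2a mice, where 1.22% of all regions were called as lower and 0.928% as higher, and no region of the other 7 lists was called. The summed level of the 6 endothelial regions was 260.0 to 268 CPM in Rosa and 70.4 to 79.9 CPM in Camk2a tChIP-Seq, and that of the 7 astrocyte regions 607 to 648 and 354 to 372 CPM. The part of these other cell types in the values of the 6 interneuron lineage regions was not tested.

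Across the 12 libraries, the 6 regions fell into differing patterns. Pearson's r of log2 CPM was 0.92 between *Dlx2* and *Dlx6*, 0.86 between *Dlx1* and *Lhx6* and 0.78 between *Lhx6* and *Sp8*, but -0.26 between *Dlx6* and *Sp8*. The libraries come from 4 groups, and r reflects mainly the group means. The regions outside the 6 whose profile was most like their mean, among 13026 TSS regions with at least 240 reads, were those of *Tnfrsf1b* (r = 0.99), *Homer3* (0.98), 3010003L21Rik with *Fam60a* (0.98), *Litaf* (0.98) and *Pdf* (0.97), over 12 libraries. The *Tnfrsf1b* region (chr4:144835515-144836971) had mean levels of 19.1 CPM in Rosa single, 28.1 in Rosa tChIP, 17.3 in Camk2a single and 9.84 in Camk2a tChIP-Seq.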

How the data were processed

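H3K4me3 libraries of 4 groups were analysed, and the 12 input and FLAG libraries were not used here. The authors' counts are of reads on mm9 (Bowtie), without repeats and duplicates, within MACS peaks found reproducibly in triplicate experiments. The deposited counts are whole numbers, unnormalized, on 1 list of 17993 regions, without strand. The submitters' processing notes give Bowtie 1.0.0, Bowtie2 2.1.0 and bedtools 2.17.0. How the peaks of the groups were joined into this list is not given in the sources used here. Inputs were not subtracted, so the values include background.

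Pairs of groups were compared on their own 6 libraries, and the interaction on all 12, by glmQLFit and glmQLFTest of edgeR 4.0.16 (R 4.3.3) after TMM normalization, with no filter, and Benjamini-Hochberg adjustment over all regions. Calls had an adjusted p under 0.01. The SE of a log2 fold change was derived as its absolute value over the square root of the edgeR F statistic. CPM used TMM factors of all 12 libraries. TSSs were 5′ ends of GENCODE M1 transcripts. For a list gene, the TSS region with the most reads was used. Every member and its neighbors within 50 kb are named, and for the other lists the 3 called genes with the largest change and no overlap between the groups in tChIP-Seq. A few of the genes and sequences this rule covers are not reported here. Members and lists were chosen with earlier results of these data known. Whether the 3 libraries of a group came from separate animals is not stated, so p-values measure the spread between these libraries, which may be technical. Alternatives were DESeq2 1.42.0, its size factors, library totals, a minimum of 10 counts, a threshold of 0.05, a joint fit, a replicate block, thinning, a window of 1000 bp around a TSS, and leaving out each library.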

Additional observations from a re-analysis of the deposited data

Results flagged for a closer look

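The effect of the mouse line differed between tChIP-Seq and single ChIP-Seq at 5 of the 6 regions, by the interaction term of edgeR over 12 libraries. The interaction was -1.38 on the log2 scale at *Dlx2*, -1.15 at *Lhx6*, -1.03 at *Dlx6*, -0.84 at *Dlx1* and -0.63 at *Dlx5*, with adjusted p values from 2.36e-10 to 0.00302. The interactions at *Dlx1* and *Dlx5* were not called with DESeq2 (adjusted p = 0.0135 and 0.0127).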

How the results depend on the processing

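The counts of called interneuron lineage regions changed by more than 1.5 times in 2 settings. With DESeq2 the interaction was called at 3 regions in place of 5. With thinned single ChIP-Seq counts, the Rosa comparison of tChIP-Seq with single ChIP-Seq was called at 1 in place of 3. Thinning leaves fewer reads, and the part of this in the lost calls was not tested. When each library was left out in turn, the counts were 4 to 5 between the lines in tChIP-Seq, 4 to 5 for the interaction, 2 to 3 in Rosa mice, and 3 in Camk2a mice. Between the lines in single ChIP-Seq the count was 0 in every setting run. The lowest count between the lines in tChIP-Seq came without replicate 2 of Rosa tChIP-Seq, and in Rosa mice without replicate 1 or 2 of Rosa tChIP-Seq. *Dlx1*, *Dlx2*, *Dlx6* and *Lhx6* kept their calls between the lines in tChIP-Seq in all 13 alternatives, with the highest adjusted p at 0.00164 for *Dlx6*. Taking regions within 1000 bp of a TSS added *Sp9*, which gave 6 called regions in tChIP-Seq, 6 for the interaction and 4 in Camk2a mice.

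Of all regions, the 386 called between the lines in single ChIP-Seq became 34 with DESeq2, 251 with library totals alone, 18 after thinning, 1191 at a threshold of 0.05 and 118 to 296 without 1 library. The 8617 called in Camk2a mice became 5563 with DESeq2. The causes were not tested. No direction of a called value was reversed in any setting. Same-numbered libraries did not deviate together (r from -0.0098 to 0.0285). The deviations also hold the counting noise of each library, so this cannot exclude a lysate shared by same-numbered libraries. With the replicate block the called interneuron lineage regions were 5 between the lines in tChIP-Seq, 0 in single ChIP-Seq, 3 in each line and 5 for the interaction, and all regions called were 5468, 433, 8473, 8516 and 4864, respectively. Between the lines, this block joined same-numbered libraries of different mice, which are not known to be paired. Reads per tChIP-Seq library were fewest at *Sp8* (20 to 34) and *Dlx6* (22 to 35).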
